A study of Homo sapiens with 8 samples.

Results

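The 8 genes described here encode the urokinase system and a set of matrix metalloproteinases with their inhibitors: PLAU, PLAUR, PLAT, MMP1, MMP14, TIMP1, TIMP2 and TIMP3. They were chosen by name, as the plasminogen activator, metalloproteinase and TIMP genes listed for the comparison, and all 8 were found among the 13546 genes of the count table. RNA came from tumours formed in nude mice, which lack a thymus and most T cells, by injected MDA-MB-231 cells. MDA-MB-231 is a human cell line of triple-negative breast cancer, without estrogen and progesterone receptors and without amplified HER2. The injected cells were labelled CDK4 knockout (CDK4KO, 4 libraries) or CDK4 wild type (CDK4WT, 4 libraries), and no treatment or time is stated for either group. The labels do not say how CDK4 was disrupted, whether the knockout line is 1 clone, or whether each tumour came from its own mouse. The p-values therefore measure only the spread between these libraries.

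Urokinase (PLAU) and tissue plasminogen activator (PLAT) cut plasminogen into plasmin, a broad serine protease that digests fibrin and can activate other proteases. Urokinase does so at the cell surface, bound to its receptor PLAUR. MMP1 is a secreted collagenase that cuts fibrillar collagen, and MMP14 is a membrane-anchored collagenase that also activates proMMP2. The TIMPs are secreted inhibitors that plug the zinc-containing active site of metalloproteinases, and TIMP2 at low amounts also takes part in proMMP2 activation by MMP14. MDA-MB-231 cells are widely used to study invasion through matrix, in which these proteases act.

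Each library held between 27840883 and 33617977 counts, and the lowest count of any of the 8 genes in a library was 2731, so that counting error was small beside the spread between tumours. CDK4, the gene named by the genotype, had 107, 119, 126 and 137 CPM (counts per 1000000 of the library total) in CDK4KO libraries 1 to 4, against 116, 108, 117 and 110 CPM in CDK4WT libraries 1 to 4. Its count therefore did not separate the genotypes (log2 difference 0.12 ± 0.06 SE, edgeR adjusted p = 0.477), and below CDK4KO and CDK4WT are the labels' names. CDK4KO libraries 1 and 4 lay farthest from their own group, with a root mean square distance on the log2 CPM scale of 0.343 and 0.317, against 0.279 and 0.245 for the other two CDK4KO libraries and 0.167 to 0.253 for the CDK4WT libraries. Results are therefore also given without these 2 libraries. They were picked by their distance in these same expression values, which by itself lowers the spread among the CDK4KO libraries kept. Without them edgeR called 447 genes over the whole table, against 8 with all libraries. The adjusted p-values of these reduced fits are therefore descriptions and not tests. Of 8 genes used as MDA-MB-231 markers all 8 were measured, with VIM highest at 9167 ± 1160 CPM in CDK4KO and 9803 ± 978 CPM in CDK4WT tumours (SD, n = 4 each). Of 7 epithelial and receptor genes of the breast 4 were measured (ERBB2, EPCAM, GATA3 and KRT5), and ESR1, PGR and CDH1 were not analysed here. In bulk RNA, fewer cells of a type and less RNA per cell cannot be told apart.

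None of the 8 genes passed the test between genotypes. Two-sided edgeR quasi-likelihood tests with Benjamini-Hochberg adjustment over all genes called 0 of the 8 at an adjusted p under 0.05, where they called 8 of 13546 genes, or 0.0591%. At an unadjusted p under 0.05 there were 2 of the 8, MMP1 and TIMP2, against 1758 genes or 13.0% of all. The ranges of the genotypes did not overlap for 1 of the 8, TIMP2, against 1040 genes or 7.68% of all. DESeq2 called 0 of the 8, against 315 genes or 2.33% of those it tested, and limma voom with library quality weights called 0 of the 8, against 285 genes or 2.10%. The log2 difference, CDK4KO minus CDK4WT, was positive for 5 of the 8 and negative for 3, with a median of 0.07, beside a median of 0.0037 over all genes tested.

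**Figure D1:**
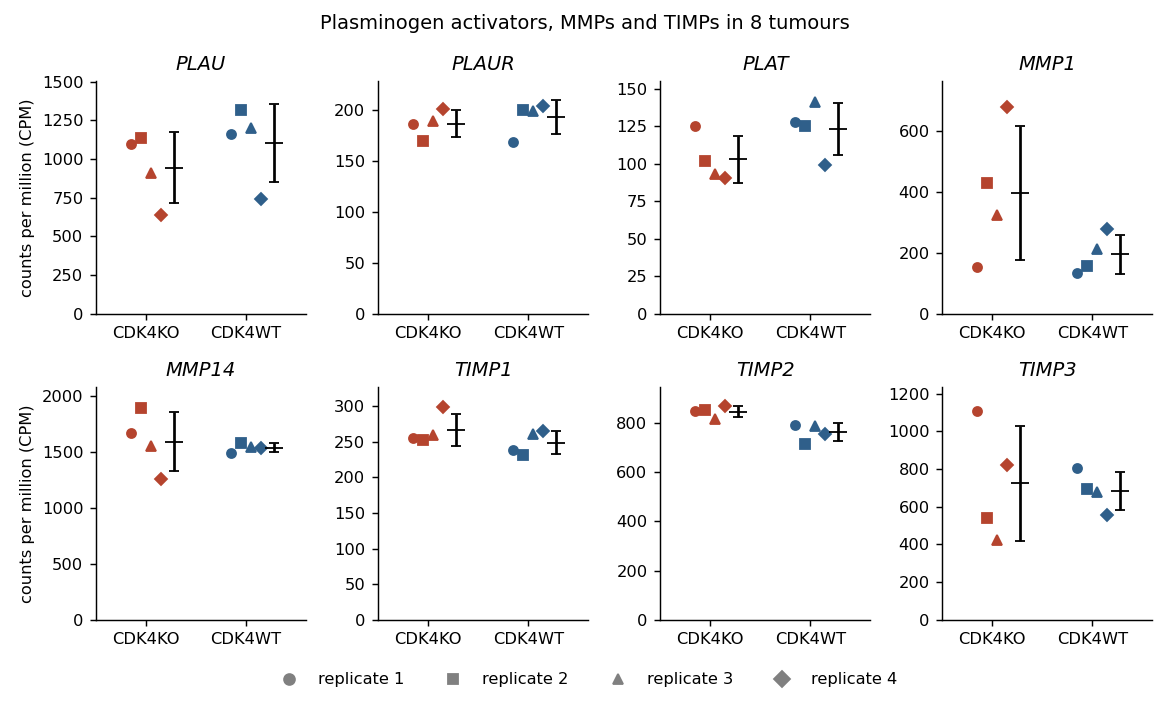
CPM (vertical axes, from 0) of each gene in every tumour library, CDK4KO in red and CDK4WT in blue, with the mean and SD of 4 libraries in black. The groups overlap in every panel but that of TIMP2, and MMP1 and TIMP3 spread most among CDK4KO tumours relative to their means.

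PLAU was more abundant than PLAT per length in both genotypes, as given below, and varied more between tumours of a genotype than between genotypes. PLAU (ENSG00000122861, chr10:73909177-73917497, plus strand, hg38) had 1099, 1135, 907 and 638 CPM in CDK4KO tumours 1 to 4, against 1161, 1318, 1201 and 741 CPM in CDK4WT tumours 1 to 4. The groups overlapped, and the lowest value of each belonged to its tumour 4. The difference was −0.22 ± 0.22 on the log2 scale (SE; edgeR adjusted p = 0.710), which corresponds to 0.859-fold with a 95% interval of 0.614 to 1.20. Its size depended on single tumours: it was −0.062 without CDK4KO tumour 4 and −0.36 without CDK4WT tumour 4. Without CDK4KO tumours 1 and 4 it was −0.11 ± 0.22 (edgeR adjusted p = 0.820). The stretch that encodes the active-site serine of urokinase, the residue that attacks the peptide bond of plasminogen, is shown to place the enzyme in its family, with codons counted from the first ATG of the longest reading frame of the GENCODE 29 transcript (431 codons) and the serine codon in capitals.
PLAU codons 367 to 386: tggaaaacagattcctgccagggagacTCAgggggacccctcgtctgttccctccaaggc
Of the exon sequence of PLAU, 31.1% (916 bp) overlaps the antisense gene C10orf55, and since no source used here gives the strand setting of the counting, reads of the 2 genes may not be separable. C10orf55 itself was counted at 2.36 ± 0.648 CPM in CDK4KO and 4.12 ± 1.12 CPM in CDK4WT tumours (SD, n = 4 each), a small amount beside PLAU. With the strand setting unknown, this count does not show how many PLAU reads the overlap affects.

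PLAUR, the glycolipid-anchored receptor that holds urokinase at the cell surface, varied little across the 8 tumours. PLAUR (ENSG00000011422, chr19:43646095-43670547, minus strand) had 186, 170, 189 and 202 CPM in CDK4KO tumours 1 to 4, against 169, 201, 199 and 204 CPM in CDK4WT tumours 1 to 4. All values lay between 169 and 204 CPM, with a coefficient of variation of 7.01% in CDK4KO and 8.45% in CDK4WT tumours. The log2 difference was −0.05 ± 0.08 (SE; edgeR adjusted p = 0.814), with a 95% interval of −0.22 to 0.12. Leaving out 1 library, it ran from −0.12 without CDK4WT tumour 1 to −0.011 without CDK4KO tumour 2, and was −0.11 ± 0.09 without CDK4KO tumours 1 and 4 (edgeR adjusted p = 0.526).

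PLAT, the other activator, was lower on average in CDK4KO tumours without passing the test. PLAT (ENSG00000104368, chr8:42175233-42207724, minus strand) had 125, 102, 93.5 and 90.9 CPM in CDK4KO tumours 1 to 4, against 128, 125, 141 and 99.0 CPM in CDK4WT tumours 1 to 4. The groups overlapped: CDK4KO tumours 1 and 2 lay within the CDK4WT range, and CDK4KO tumours 3 and 4 lay below it. The log2 difference was −0.25 ± 0.13 (SE) and did not pass (edgeR adjusted p = 0.430, DESeq2 0.383, voom 0.0731). Without CDK4KO tumours 1 and 4 it was −0.33 ± 0.11 (edgeR adjusted p = 0.153). Of the 50-base stretches in PLAT transcripts, 1.26% recur in the same sense in other genes, so a small part of its reads may be uncertain.

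MMP1 showed the widest difference between the genotype means and also the widest spread relative to its mean. MMP1 (ENSG00000196611, chr11:102789920-102798160, minus strand) had 152, 428, 324 and 678 CPM in CDK4KO tumours 1 to 4, against 132, 158, 213 and 277 CPM in CDK4WT tumours 1 to 4. Of the CDK4KO tumours, 3 exceeded every CDK4WT tumour, while CDK4KO tumour 1 lay within the CDK4WT range. The coefficient of variation was 55.7% in CDK4KO and 33.1% in CDK4WT tumours. The fitted fold was 2.01 with a 95% interval of 1.04 to 3.89, a log2 difference of 1.0 ± 0.42 (SE), and it missed the threshold (edgeR adjusted p = 0.361, DESeq2 0.294, voom 0.0801). Its size depended on single CDK4KO tumours: leaving out tumour 4, the highest, gave a log2 difference of 0.63, and leaving out tumour 1, the lowest, gave 1.27, with edgeR adjusted p between 0.107 and 0.586 over the 8 fits that each left out 1 library. Without both it was 0.94 ± 0.34 (edgeR adjusted p = 0.227). Of the exon sequence of MMP1, 7.61% overlaps WTAPP1 on the other strand, which was not analysed here.

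MMP14, the membrane-anchored collagenase, overlapped between the genotypes and varied little among CDK4WT tumours. MMP14 (ENSG00000157227, chr14:22836557-22849027, plus strand) had 1667, 1892, 1551 and 1257 CPM in CDK4KO tumours 1 to 4, against 1494, 1583, 1545 and 1532 CPM in CDK4WT tumours 1 to 4. The CDK4WT values sat inside the range of the CDK4KO values, with coefficients of variation of 16.6% in CDK4KO and 2.39% in CDK4WT tumours; the difference in spread was not tested. The log2 difference was 0.05 ± 0.11 (SE; edgeR adjusted p = 0.888), with a 95% interval of −0.20 to 0.30. The sign was not stable, since leaving out CDK4KO tumour 2 gave −0.042 and leaving out CDK4KO tumour 4 gave 0.16. Without CDK4KO tumours 1 and 4 it was 0.16 ± 0.09 (edgeR adjusted p = 0.360).

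The zinc-binding stretches of both collagenases are shown because they carry the part that TIMPs block, with the codons of the 3 histidines that hold the catalytic zinc in capitals.
MMP1 codons 215 to 231: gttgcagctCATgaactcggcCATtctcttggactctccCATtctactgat
MMP14 codons 236 to 252: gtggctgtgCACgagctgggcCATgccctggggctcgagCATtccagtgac
Over these 51 bases 34 were identical (66.7%). No stretch of 50 bases in the transcripts of MMP1 or MMP14 occurred in the same sense in another gene of the annotation, while 2.92% of those of MMP1 occur in WTAPP1 on the other strand.

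TIMP1, which inhibits most secreted metalloproteinases, overlapped between the genotypes. TIMP1 (ENSG00000102265, chrX:47582313-47586789, plus strand) had 255, 252, 259 and 299 CPM in CDK4KO tumours 1 to 4, against 238, 231, 261 and 265 CPM in CDK4WT tumours 1 to 4. The groups overlapped, and CDK4KO tumour 4 stood above the other 7 tumours. The log2 difference was 0.10 ± 0.07 (SE; edgeR adjusted p = 0.616). It was 0.049 without CDK4KO tumour 4, and 0.03 ± 0.08 without CDK4KO tumours 1 and 4 (edgeR adjusted p = 0.848).

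TIMP2 was the one gene of the 8 whose genotypes did not overlap, by a small margin. TIMP2 (ENSG00000035862, chr17:78852977-78925387, minus strand) had 847, 854, 817 and 868 CPM in CDK4KO tumours 1 to 4, against 793, 715, 786 and 753 CPM in CDK4WT tumours 1 to 4. The lowest CDK4KO tumour stood at 817 CPM and the highest CDK4WT tumour at 793 CPM. The fitted fold was 1.11 with a 95% interval of 1.01 to 1.22, a log2 difference of 0.15 ± 0.06 (SE), and it missed the threshold (edgeR adjusted p = 0.324, DESeq2 0.124, voom 0.202). Without CDK4KO tumours 1 and 4 it was 0.13 ± 0.07 (edgeR adjusted p = 0.349). Summed CPM of endothelial markers, of which 7 of 9 were measured, also did not overlap, at 315 to 367 CPM in CDK4KO and 252 to 282 CPM in CDK4WT tumours, with ESAM highest. Of all genes taken singly, 7.68% did not overlap either, but no such share was computed for sums of genes. The marker list was set with earlier results of these data known. The injected cells are human, the host is a mouse and reads were aligned to hg38, so this sum cannot be read as a measure of host vessels. CDH5 and CLDN5 were not analysed here, and the part of these markers in the TIMP2 difference was not tested. Of the exon sequence of TIMP2, 10% overlaps other genes, among them CEP295NL on the same strand, counted at 1.93 ± 0.441 CPM in CDK4KO and 1.61 ± 0.318 CPM in CDK4WT tumours (SD, n = 4 each).

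TIMP3, the TIMP that binds to the extracellular matrix, varied most among the inhibitors. TIMP3 (ENSG00000100234, chr22:32801701-32863043, plus strand) had 1109, 541, 425 and 821 CPM in CDK4KO tumours 1 to 4, against 806, 692, 681 and 555 CPM in CDK4WT tumours 1 to 4. CDK4KO tumours 1 and 4 lay above every CDK4WT tumour and CDK4KO tumours 2 and 3 below every one, so the CDK4KO values stood on both sides of the CDK4WT range. The coefficient of variation was 42.2% in CDK4KO and 15% in CDK4WT tumours. The log2 difference of 0.09 ± 0.28 (SE, edgeR adjusted p = 0.923) turned to −0.50 ± 0.14 without CDK4KO tumours 1 and 4 (edgeR adjusted p = 0.0910). These 2 libraries lay farthest from their group and also had the highest TIMP3. Leaving them out kept only CDK4KO values below the CDK4WT range, so the negative sign followed from that choice and the p-value is a description. Fibroblast markers, of which 7 of 11 were measured, summed to 733 to 1253 CPM in CDK4KO and 824 to 1239 CPM in CDK4WT tumours, and were lowest in CDK4KO tumour 4; their part in the TIMP3 values was not tested. With a mouse host and reads aligned to hg38, this sum cannot be read as a measure of host fibroblasts.

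The 3 TIMPs begin, after removal of the signal peptide, with a cysteine that sits on the zinc of the inhibited enzyme. The first codons of the mature proteins are shown for that reason, with cysteine codons in capitals.
TIMP1 codons 24 to 37: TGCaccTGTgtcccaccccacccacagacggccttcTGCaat
TIMP2 codons 27 to 40: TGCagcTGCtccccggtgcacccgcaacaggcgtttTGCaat
TIMP3 codons 24 to 37: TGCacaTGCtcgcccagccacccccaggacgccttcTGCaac
Of 42 bases, 28 were identical between TIMP1 and TIMP2, 29 between TIMP1 and TIMP3 and 28 between TIMP2 and TIMP3. The cysteine codons stand at the same places in all 3, while no stretch of 50 bases is shared in sense between TIMP1 or TIMP3 and any other gene.

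**Figure D2:**
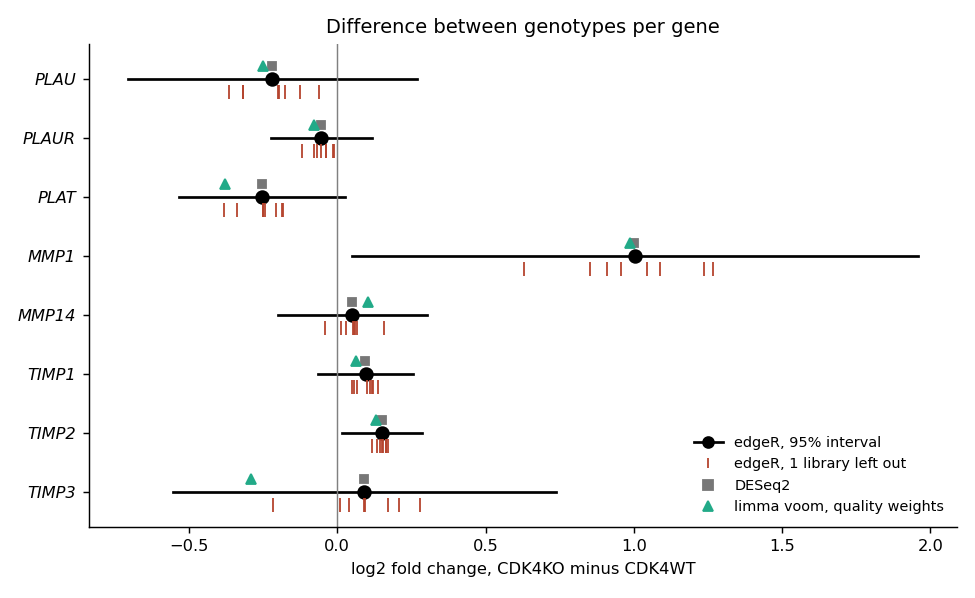
Log2 difference of each gene, CDK4KO minus CDK4WT (horizontal axis), from edgeR with its 95% interval (black), from edgeR with each of the 8 libraries left out in turn (red ticks), from DESeq2 (grey squares) and from limma voom with quality weights (green triangles). The intervals of MMP1 and TIMP2 lie above 0 before adjustment, and the estimates for TIMP3 and MMP14 fall on both sides of 0.

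To compare levels between genes, CPM were divided by the length of exon in kilobases, which gives RPKM. On this scale the proteases MMP14 and PLAU were the most abundant of the 8 transcripts in both genotypes, and PLAUR and PLAT the least. In CDK4KO tumours the means were 357 ± 59.1 for MMP14, 320 ± 77.1 for PLAU, 201 ± 112 for MMP1, 173 ± 14.2 for TIMP1, 157 ± 66.4 for TIMP3, 150 ± 3.78 for TIMP2, 41.9 ± 2.94 for PLAUR and 15.6 ± 2.35 RPKM for PLAT (SD, n = 4). In CDK4WT tumours they were 375 ± 85.4 for PLAU, 345 ± 8.24 for MMP14, 161 ± 10.7 for TIMP1, 148 ± 22.3 for TIMP3, 135 ± 6.36 for TIMP2, 98.9 ± 32.8 for MMP1, 43.4 ± 3.67 for PLAUR and 18.6 ± 2.66 RPKM for PLAT (SD, n = 4). MMP1 thus took place 3 of 8 by mean level in CDK4KO and place 6 in CDK4WT tumours, but its CDK4KO range of 77.0 to 344 RPKM overlapped those of both its neighbours, PLAU and TIMP1. Among neighbours in the order, ranges were apart in CDK4KO tumours for TIMP2 over PLAUR and PLAUR over PLAT, and in CDK4WT tumours for MMP14 over TIMP1, MMP1 over PLAUR and PLAUR over PLAT. The other neighbours overlapped.

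The levels depend on the length used. The union of annotated exons is 4457 bp for PLAUR while its longest transcript is 1610 bp, and with the length of that transcript PLAUR stood at 116 RPKM in CDK4KO and 120 RPKM in CDK4WT tumours. With longest transcripts TIMP1 stood at 243 RPKM in CDK4KO and 227 RPKM in CDK4WT tumours, TIMP2 at 232 RPKM in CDK4KO and 209 RPKM in CDK4WT, and PLAT at 29.7 RPKM in CDK4KO and 35.6 RPKM in CDK4WT tumours. MMP1 then took place 5 in CDK4KO and place 7 in CDK4WT tumours. MMP14 and PLAU remained the highest and PLAT the lowest under both lengths.

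**Figure D3:**
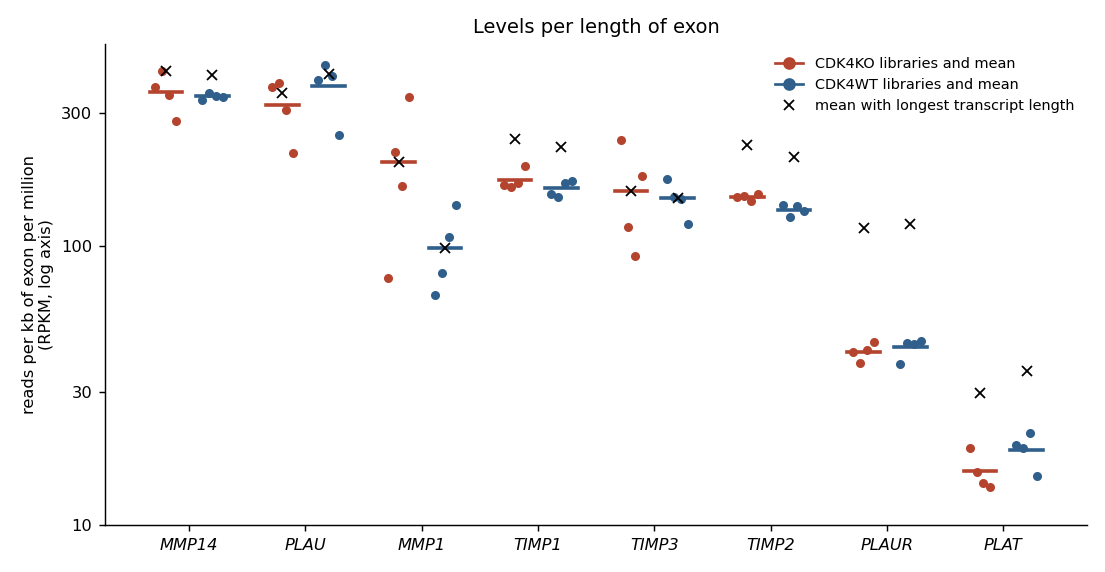
Level of each gene per length, as CPM per kilobase of exon, or RPKM (log axis), for each CDK4KO (red) and CDK4WT (blue) library with the mean as a bar, ordered by the CDK4KO mean. Crosses give the means with the longest transcript's length, which raises PLAUR from 41.9 to 116 RPKM in CDK4KO tumours and leaves MMP1 and TIMP3 in place.

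Ratios of protease to inhibitor transcripts and of PLAU to its receptor, taken within each tumour on the RPKM scale, overlapped between the genotypes in all 4 ratios examined. The log2 ratio of MMP1 to TIMP1 was −1.10, 0.41, −0.03 and 0.83 in CDK4KO tumours 1 to 4, against −1.21, −0.91, −0.65 and −0.29 in CDK4WT tumours 1 to 4. Of the CDK4KO tumours, 3 lay above all CDK4WT tumours, and the group means were 0.03 ± 0.83 in CDK4KO and −0.76 ± 0.39 in CDK4WT (SD, n = 4 each). The mean difference of 0.79 ranged from 0.52 to 1.17 when 1 library was left out. The log2 ratio of MMP14 to TIMP2, the pair that together activates proMMP2, was 1.31, 1.48, 1.26 and 0.87 in CDK4KO tumours 1 to 4, against 1.25, 1.48, 1.31 and 1.36 in CDK4WT tumours 1 to 4. MMP14 transcripts thus exceeded those of TIMP2 in each of the 8 tumours.

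PLAU also exceeded its receptor in every tumour. The log2 ratio of PLAU to PLAUR was 3.16, 3.33, 2.86 and 2.26 in CDK4KO tumours 1 to 4, against 3.37, 3.31, 3.19 and 2.45 in CDK4WT tumours 1 to 4, lowest in tumour 4 of each genotype, with a mean of 2.90 ± 0.47 in CDK4KO and 3.08 ± 0.43 in CDK4WT tumours (SD, n = 4 each). The summed level of MMP1 and MMP14 over that of the 3 TIMPs was −0.31, 0.57, 0.34 and 0.25 on the log2 scale in CDK4KO tumours 1 to 4, against −0.23, 0.02, −0.01 and 0.18 in CDK4WT tumours 1 to 4, so that CDK4KO tumours held both the lowest and the highest value. Its mean log2 ratio was 0.21 ± 0.37 in CDK4KO and −0.01 ± 0.17 in CDK4WT tumours (SD, n = 4 each). Without CDK4KO tumours 1 and 4, a choice made after the values were seen, the differences were 0.95 for MMP1 to TIMP1, 0.02 for MMP14 to TIMP2 where −0.12 was found with all libraries, 0.01 for PLAU to PLAUR where −0.18 was found, and 0.46 for the summed ratio. With the longest transcript's length in place of the union of exons, the summed ratio averaged −0.02 ± 0.31 in CDK4KO and −0.19 ± 0.14 in CDK4WT tumours, so that its CDK4KO mean fell on the other side of equal levels, and every CDK4WT tumour lay below 0. The MMP1 to TIMP1 ratio then averaged −0.47 ± 0.83 in CDK4KO and −1.26 ± 0.39 in CDK4WT, and MMP14 to TIMP2 0.87 ± 0.26 in CDK4KO and 0.98 ± 0.10 in CDK4WT tumours. PLAU to PLAUR then averaged 1.58 ± 0.47 in CDK4KO and 1.76 ± 0.43 in CDK4WT tumours, and PLAU still exceeded its receptor in every tumour. The choice of length shifts both genotypes alike for ratios of 2 genes, so their differences did not move, while that of the summed ratio was 0.18. These ratios were given no test, and transcript ratios are not ratios of active protein.

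**Figure D4:**
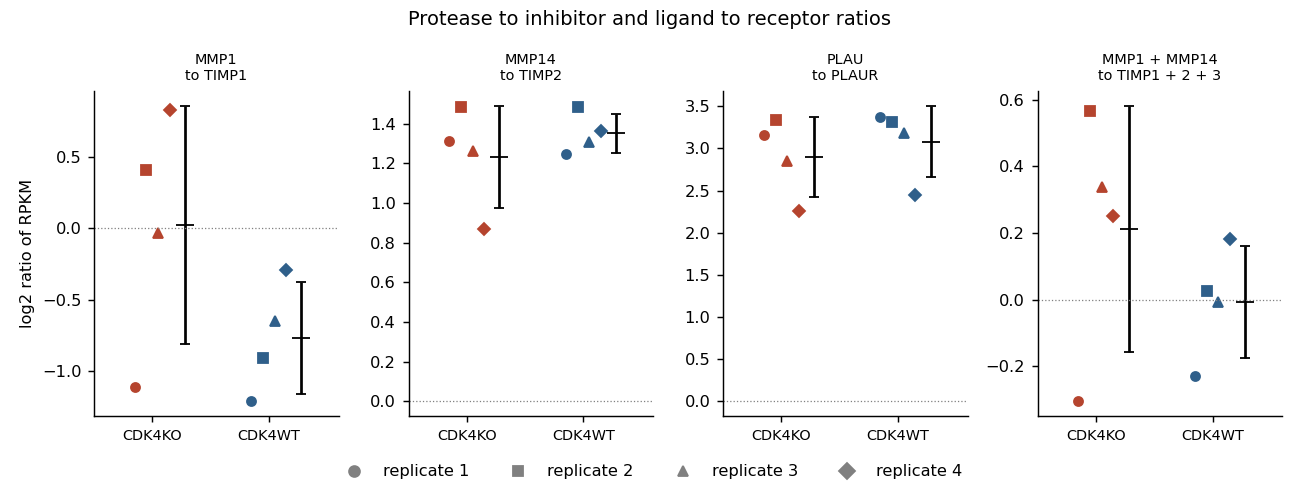
Log2 ratios of RPKM per tumour for 4 pairs or sums of genes (each panel has its own vertical axis; the dotted line marks equal levels), CDK4KO in red left of CDK4WT in blue, with the mean and SD of 4 tumours in black. The genotypes overlap in each panel, and the MMP1 to TIMP1 ratio spreads from −1.10 to 0.83 among CDK4KO tumours.

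The other genes of these pathways were read from 8 lists that held 114 measured genes besides the 8, with LRP1 in 2 of the lists. Over these lists together edgeR called 0 genes, while 9 were higher and 12 lower in CDK4KO at an unadjusted p under 0.05, or 18.4% of the 114 beside 13.0% of all genes. DESeq2 called 4 as higher and 1 as lower in CDK4KO tumours (SORL1, SPOCK2, AHNAK and ITGB3 higher, CTSH lower), and voom called SORL1 and SPOCK2 as higher and CTSH as lower. These were 4.39% of the 114 with DESeq2, beside 2.33% of all genes, and 2.63% with voom, beside 2.10% of all genes. The genotypes did not overlap for 9 of the 114, or 7.89%, beside 7.68% of all genes. The unadjusted and non-overlap counts include SPOCK2 and CTSV, and the DESeq2 and voom calls include SPOCK2. All genes of the table exceed 1 CPM in 4 or more libraries, a limit that SPOCK2 met only through CDK4KO and CTSV only through CDK4WT tumours. The median log2 difference was −0.04.

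Among other activators, inhibitors and clearance receptors of the plasminogen system, 14 of 19 genes were measured and edgeR called 0, with a median log2 difference of 0.02. SORL1, a sorting receptor of the LDL receptor family that can bind urokinase, had 10.9, 16.2, 13.6 and 16.7 CPM in CDK4KO tumours 1 to 4, against 8.69, 5.80, 7.51 and 5.01 CPM in CDK4WT tumours 1 to 4. Every CDK4KO tumour was above every CDK4WT tumour, and the log2 difference of 1.09 ± 0.17 (SE) lay just outside the edgeR threshold (adjusted p = 0.0508, DESeq2 3.94e-06, voom 0.0122). With 1 library left out, the log2 difference of SORL1 ran from 0.98 to 1.23 and its edgeR adjusted p from 0.0182 to 0.206, on both sides of the threshold. LRP1, an endocytic receptor that clears bound urokinase from the cell surface, had 421 ± 47.7 CPM in CDK4KO and 415 ± 32.5 CPM in CDK4WT tumours (SD, n = 4 each; edgeR adjusted p = 0.949). VLDLR, another clearance receptor, stood at 34 ± 3.81 CPM in CDK4KO and 43.4 ± 4.91 CPM in CDK4WT tumours without overlap, and did not pass (edgeR adjusted p = 0.233). THBD, thrombomodulin, stood at 50.2 ± 11.4 CPM in CDK4KO and 38.8 ± 4.4 CPM in CDK4WT tumours (edgeR adjusted p = 0.278). The plasminogen receptors were measured for 8 of 8 genes, 0 called, median −0.06; AHNAK, a large scaffold protein that binds the S100A10 and annexin A2 plasminogen receptor, was at 3215 ± 245 CPM in CDK4KO and 2731 ± 70.2 CPM in CDK4WT tumours (log2 difference 0.24 ± 0.08 SE; edgeR adjusted p = 0.236).

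Of 21 other matrix metalloproteinases 7 were measured, and all stood at a mean of 21.8 CPM or less in both genotypes. MMP2, the gelatinase activated by MMP14, was the highest of them at 19.9 ± 5.51 CPM in CDK4KO and 21.8 ± 6.67 CPM in CDK4WT tumours (SD, n = 4 each; edgeR adjusted p = 0.869). MMP15, a membrane-anchored relative of MMP14, stood at 2.79 ± 0.224 CPM in CDK4KO and 3.63 ± 0.353 CPM in CDK4WT tumours without overlap (edgeR adjusted p = 0.270). The median log2 difference of the 7 was −0.13 and 0 were called. Of activators, inducers and other inhibitors of metalloproteinases 15 of 18 were measured, 0 were called by edgeR, and the median was 0.02. SPOCK2, a secreted proteoglycan of the testican family, stood at 1.66 ± 0.214 CPM in CDK4KO and 0.850 ± 0.126 CPM in CDK4WT tumours (log2 difference 0.96 ± 0.18 SE; edgeR adjusted p = 0.0769, DESeq2 0.0249). Its lowest CDK4KO value was 1.44 CPM and its highest CDK4WT value 0.982 CPM. SPOCK2 thus met the table's limit of 1 CPM in 4 libraries only through CDK4KO tumours, so its difference was in part selected by that limit. CD44, a hyaluronan receptor that can anchor metalloproteinases, stood at 542 ± 49.6 CPM in CDK4KO and 620 ± 21.5 CPM in CDK4WT tumours, and CD63, a tetraspanin that binds TIMP1, at 349 ± 24.0 CPM in CDK4KO and 310 ± 19.7 CPM in CDK4WT tumours. Neither passed (edgeR adjusted p = 0.313 and 0.330).

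Of the cell-surface partners of the urokinase receptor 9 of 13 were measured, 0 were called by edgeR, and the median log2 difference was 0.01. ITGB3, the beta-3 integrin subunit of the vitronectin receptor, stood at 76.9 ± 12.4 CPM in CDK4KO and 52.5 ± 10.6 CPM in CDK4WT tumours, with overlap (log2 difference 0.55 ± 0.16 SE; edgeR adjusted p = 0.215, DESeq2 0.0268). ITGA3, the most abundant partner, stood at 1917 ± 241 CPM in CDK4KO and 1910 ± 97.5 CPM in CDK4WT tumours (edgeR adjusted p = 0.987). The AP-1, ETS and NF-kB genes, whose products bind regulatory regions of PLAU and MMP1, formed a list together with RUNX1 and RUNX2. Of this list 18 of 18 genes were measured and 0 were called, with 9 positive and 9 negative differences and a median of −0.005. ETS1, the highest of them, stood at 360 ± 41.2 CPM in CDK4KO and 352 ± 34.3 CPM in CDK4WT tumours (edgeR adjusted p = 0.917).

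**Figure D5:**
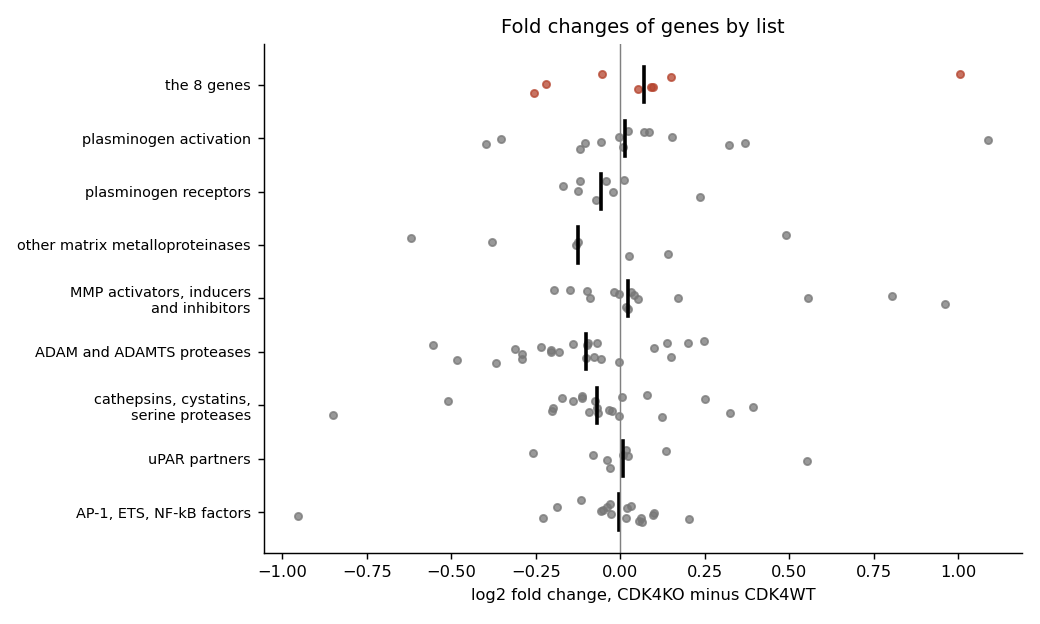
Log2 differences, CDK4KO minus CDK4WT (horizontal axis), of the 8 genes (red) and of the genes of each pathway list (grey), with the median of each as a black bar. MMP1 at 1.0, SORL1 at 1.09 and SPOCK2 at 0.96 lie farthest to the right, and the medians lie between −0.13 and 0.07. SPOCK2 met the table's limit on low counts only through CDK4KO tumours.

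Genes whose level followed each of the 3 members with the smallest p most closely were found by Pearson r of log2 CPM over the 8 libraries, among 11393 genes with an average log2 CPM of at least 2. For TIMP2 these were SKAP2 (r = 0.97), SPOCD1 (0.95) and APPBP2 (0.95). For MMP1 they were ZNF740 (0.96), ERF (0.96) and ERN1 (0.96), whose own log2 differences of 0.07, 0.07 and 0.21 were far smaller than that of MMP1. For PLAT they were SSR1 (0.97), AHCYL2 (0.97) and DDOST (0.97). These r are descriptions: the highest of many genes over 8 libraries, which share library scaling.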

How the data were processed

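RNA was isolated from tumours by Trizol, and libraries used the Watchmaker mRNA kit, per the labels' protocols. The authors deposited a single table of raw counts per Ensembl gene, as whole numbers with no normalization. Per the submitters' processing notes, cutadapt trimmed the reads, STAR 2.7.11a aligned them to hg38 and featureCounts 2.0.4 counted them. Those notes also name DESeq2 1.46.0. No source used here gives the annotation release, the strand setting or how mouse reads were handled, and reads from mouse host cells could be counted where sequence is conserved. All genes of the table exceed 1 CPM in 4 or more libraries, and genes below this were not analysed here.

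Symbols were found for 13524 of 13546 identifiers. Coordinates, lengths and sequences come from GENCODE 29 on the same build, hg38. CPM are counts per 1000000 of the library total, and RPKM divides them by the union of exon lengths in kilobases. Tests between genotypes used edgeR 4.0.16 under R 4.3.3 (TMM, filterByExpr, which removed 0 genes, robust quasi-likelihood test, adjustment over 13546 genes, threshold 0.05), tested on simulated data first. Standard errors are those implied by the F statistic, and log2 CPM used a prior count of 2. Alternatives were DESeq2 1.42.0, limma 3.58.1 voom, other scalings, filters and dispersions, a block for the replicate number, leaving out each library, and leaving out CDK4KO libraries 1 and 4. CDK4KO columns were matched to replicates 1 to 4 through the library names.

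The members, the lists and the tests were chosen with earlier results of these data known. Genes named from the lists are the 15 with the smallest p and the highest in CPM of each list, and others are said to be chosen after their values were seen. Groups were taken as apart where their log2 CPM did not overlap. Ratios, levels and list medians have no test. A gene of the lists and the ratio that used it are not reported here.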

Additional observations from a re-analysis of the deposited data

Results flagged for a closer look

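In 66 groups of 4 libraries (the 8 genes, the named pathway genes and the 4 ratios in each genotype), 1 library was checked for standing apart by its gap to the nearest other relative to the whole range (Dixon's test at the 95% level). Chance marks about 1 of 20 groups. It was met 7 times. TIMP1 stood at 299 CPM in CDK4KO tumour 4, with the other three at 252 to 259 CPM. THBD stood at 67.1 CPM in the same tumour, with the others at 43.1 to 47.1 CPM. PRSS23, a secreted serine protease, stood at 693 CPM in CDK4KO tumour 1, with the others at 597 to 605 CPM, and ITGA3 at 2276 CPM in the same tumour, with the others at 1760 to 1821 CPM. PLAUR was low at 169 CPM in CDK4WT tumour 1, with the others at 199 to 204 CPM. CTSV, a lysosomal cathepsin, stood at 1.55 CPM in CDK4WT tumour 2, with the others at 1.03 to 1.11 CPM. ADAM8, a membrane metalloproteinase-disintegrin, stood at 725 CPM in CDK4WT tumour 4, with the others at 487 to 502 CPM. Of the 4 marks among CDK4KO tumours all fell on tumours 1 and 4, the libraries farthest from their group.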

How the results depend on the processing

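Of the 8 genes 0 were called in each of 18 alternatives, and 139 of 144 refitted log2 differences of the 8 kept their sign. The sign turned for TIMP3 (0.09 with all libraries) to −0.29 with voom weights, −0.00137 with the replicate block and −0.50 without CDK4KO replicates 1 and 4, and it ran from −0.22 to 0.28 with 1 library left out; for MMP14 (0.05) it ran from −0.042 to 0.16. The cause was not tested. The count of genes called over the whole table, 8 by edgeR, was 315 with DESeq2, 285 with voom, 14 with library size only, 18 with genes at 10 CPM or more, 13 with the replicate block, 447 without CDK4KO replicates 1 and 4, and 0 to 183 with 1 library left out (0 without CDK4KO replicate 2 or CDK4WT replicate 4, 183 without CDK4KO replicate 1). Pathway genes called, 0 by edgeR, numbered 5 with DESeq2, 3 with voom, 1 at 10 CPM or more, 4 without CDK4KO replicates 1 and 4, and 0 to 2 with 1 library left out. Deviations of same-numbered libraries were weakly correlated over all genes (−0.0313, −0.0142, 0.00348 and 0.194 for replicates 1 to 4), which cannot exclude a pairing. Only CDK4KO replicate 4 was most like the CDK4WT library of its own number. With the block the SE fell from 0.22 to 0.086 for PLAU and from 0.42 to 0.20 for MMP1, and rose for PLAUR and TIMP2. The block called 0 of the 8. Of 96 recomputed RPKM means 10 moved by more than 1 SD, all with the longest transcript's length. With 4 tumours a genotype, the intervals allow up to 3.89-fold for MMP1 and 1.22-fold for TIMP2.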

Other observations

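Other proteases and transcription factors of the lists gave the following values. The ADAM and ADAMTS families, of which many but not all members shed membrane proteins or cut proteoglycans, were measured for 23 of 27 genes. Of these, 18 had negative and 5 positive log2 differences, with a median of −0.10, and edgeR called 0. Over all genes tested 6613 were negative and 6933 positive. The sign counts of the lists were not tested, and some of the ADAM and ADAMTS genes stood near 1 CPM with wide spread. Among them, ADAMTS5, named after its values were seen, had a coefficient of variation of 81.0% in CDK4KO and 65.6% in CDK4WT tumours. ADAM8 was the highest of the list at 451 ± 87.2 CPM in CDK4KO and 551 ± 116 CPM in CDK4WT tumours (SD, n = 4 each, edgeR adjusted p = 0.531). ADAM15, a membrane disintegrin, stood at 212 ± 31.4 CPM in CDK4KO and 184 ± 2.17 CPM in CDK4WT tumours without overlap (edgeR adjusted p = 0.332). ADAMTS6 stood at 41.0 ± 7.45 CPM in CDK4KO and 50.8 ± 4.12 CPM in CDK4WT tumours, and ADAMTS16 at 20.1 ± 1.78 CPM in CDK4KO and 24.6 ± 3.65 CPM in CDK4WT tumours (edgeR adjusted p = 0.292 and 0.294).

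Cathepsins, cystatins and cell-surface serine proteases were measured for 21 of 26 genes, with 15 negative and 6 positive log2 differences (6613 and 6933 over all genes tested), a median of −0.07 and 0 called by edgeR. CTSH, a lysosomal cysteine protease, had 5.94, 5.67, 5.33 and 6.06 CPM in CDK4KO tumours 1 to 4, against 9.05, 7.20, 8.98 and 7.58 CPM in CDK4WT tumours 1 to 4. Every CDK4KO tumour was below every CDK4WT tumour, with a log2 difference of −0.51 ± 0.11 (SE; edgeR adjusted p = 0.114, DESeq2 0.00984, voom 0.0302). CTSV stood at 0.662 ± 0.240 CPM in CDK4KO and 1.18 ± 0.244 CPM in CDK4WT tumours, and CTSL, a related cathepsin, at 83.4 ± 10.9 CPM in CDK4KO and 69.8 ± 7.45 CPM in CDK4WT tumours (edgeR adjusted p = 0.236 and 0.313). The highest CDK4KO value of CTSV was 0.894 CPM and its lowest CDK4WT value 1.03 CPM. CTSV thus met the table's limit of 1 CPM in 4 libraries only through CDK4WT tumours, so its difference was in part selected by that limit. PRSS23 was the highest of the list at 624 ± 45.9 CPM in CDK4KO and 654 ± 62.4 CPM in CDK4WT tumours.

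Named after their values were seen, FOS, an AP-1 subunit, had 20.8 ± 3.70 CPM in CDK4KO and 40.1 ± 27.4 CPM in CDK4WT tumours (SD, n = 4 each; log2 difference −0.95 ± 0.43 SE; edgeR adjusted p = 0.401), and FOSL1, another, had 320 ± 40.9 CPM in CDK4KO and 278 ± 10.2 CPM in CDK4WT tumours (edgeR adjusted p = 0.393). F3, tissue factor, had 100 ± 25.3 CPM in CDK4KO and 131 ± 15.7 CPM in CDK4WT tumours (edgeR adjusted p = 0.353). Leukocyte markers (6 of 10 measured) summed to 22.2 to 24.3 CPM in CDK4KO and 18.2 to 31.9 CPM in CDK4WT tumours, skeletal muscle markers (3 of 8) to 6.75 to 14.1 CPM in CDK4KO and 9.95 to 32.4 CPM in CDK4WT tumours, and fat cell markers (2 of 6) to 2.46 to 3.63 CPM in CDK4KO and 2.88 to 9.79 CPM in CDK4WT tumours; of 8 neutrophil markers 0 were measured. With a mouse host and reads aligned to hg38, these values cannot be read as measures of host cells.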
